A study of Carassius auratus with 6 samples.

Results

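The genes described here are the nuclear genes annotated as subunits of respiratory complex III, complex IV and ATP synthase in the liver of crucian carp. They were taken as the entries of the expression table whose description held "Cytochrome b-c1 complex subunit", "Cytochrome c oxidase subunit", or "ATP synthase" together with "subunit", without the genes named with the prefix mt-. This gave 97 members of 47544 genes, 25 for complex III, 36 for complex IV and 36 for ATP synthase, and these 97 copies stood for 31 different subunit descriptions (8, 9 and 14). The groups were 3 libraries from fish held in hypoxia for 12 h and 3 libraries from control fish, all labelled wild-type, each from liver RNA. The labels name the species Carassius auratus and the series title names crucian carp. The oxygen level, age and sex of the fish, and whether each replicate is a separate animal, are not given in the labels, so the p-values measure only the spread between these libraries. The comparison of the groups asks which liver transcripts differ when the fish is short of oxygen, and no other time point was analysed here.

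Complex III, the cytochrome bc1 complex, takes electrons from ubiquinol and hands them to cytochrome c. Complex IV, cytochrome c oxidase, passes them on to oxygen, and it is the step of the chain at which oxygen is consumed. Both complexes pump protons across the inner mitochondrial membrane, and ATP synthase lets these protons flow back through a rotating ring to make ATP. Each complex is a mosaic of a few subunits encoded in mitochondrial DNA and many encoded in the nucleus. Crucian carp are known for living long in water without oxygen, on liver glycogen and with ethanol as an end product.

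The values are the authors' normalized counts, that is read counts divided by a size factor for each library and not by gene length, so levels can be compared between libraries but not between genes. Recovered depth was 15734847 to 22782649 reads per library. Changes are hypoxia minus control on the scale of log2 of the normalized count plus 1, ± SE from limma with 3 libraries per group, and a gene is said to have risen or fallen when its Benjamini-Hochberg adjusted p over all 41045 genes tested was under 0.05. By this test 921 genes were called, 750 higher and 171 lower after hypoxia, and the median change of all genes was 0.00. Gene names are those of the closest protein of another species, each followed by its identifier, and the genome of this fish is duplicated, so most subunits have several copies. Near-identical copies can share reads, and since the labels do not say how such reads were counted, the level of a single copy is uncertain. Of the members, 94 had an entry in the goldfish reference gene table and 3 were loci of the authors without an NCBI identifier. The reference lists 5 of the 94 as long non-coding RNA, 2 annotated as subunit 10 of complex III and 3 as subunit e of ATP synthase. Of the 97 members, 96 reached a mean of 1 and were tested. The untested member, Uqcr11 113039641, had 0, 0 and 1.63 normalized counts in hypoxia and 0 in each control library.

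Transcripts of all 3 complexes were lower after hypoxia, by about the same proportion, while 1 of the 96 tested copies passed the test. The summed level of the 25 complex III members was 9774 ± 2606 in hypoxia and 15372 ± 1813 in controls (SD, n = 3 each), a ratio of 0.636. For complex IV the sum was 17298 ± 2916 in hypoxia and 28651 ± 1112 in controls, a ratio of 0.604. For ATP synthase it was 36125 ± 9162 in hypoxia and 58512 ± 7594 in controls, a ratio of 0.617. The median change over the tested members was -0.67 for complex III, -0.68 for complex IV and -0.81 for ATP synthase. Of the 96 tested members, 89 had a change below 0 (23 of 24, 30 of 36 and 36 of 36), against 49.8% of all genes.

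In 64 of the 96 members every hypoxia library lay below every control library, 15 of complex III, 20 of complex IV and 29 of ATP synthase, against 12.2% of all genes. The reverse held for 1 member, COX6B1 113092707, against 12.4% of all genes. At an unadjusted p under 0.05 the counts were 59 lower, against 8.41% of all genes, and 1 higher, against 10.2%. After adjustment over all genes 1 member had fallen, Cox6b1 113059951, and 0 had risen, where 0.417% of all genes had fallen, 1.83% had risen and 2.24% were called either way. The members whose groups were apart were thus a larger share than among all genes, and 1 call in 96 is a share near the background.

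**Figure D1:**
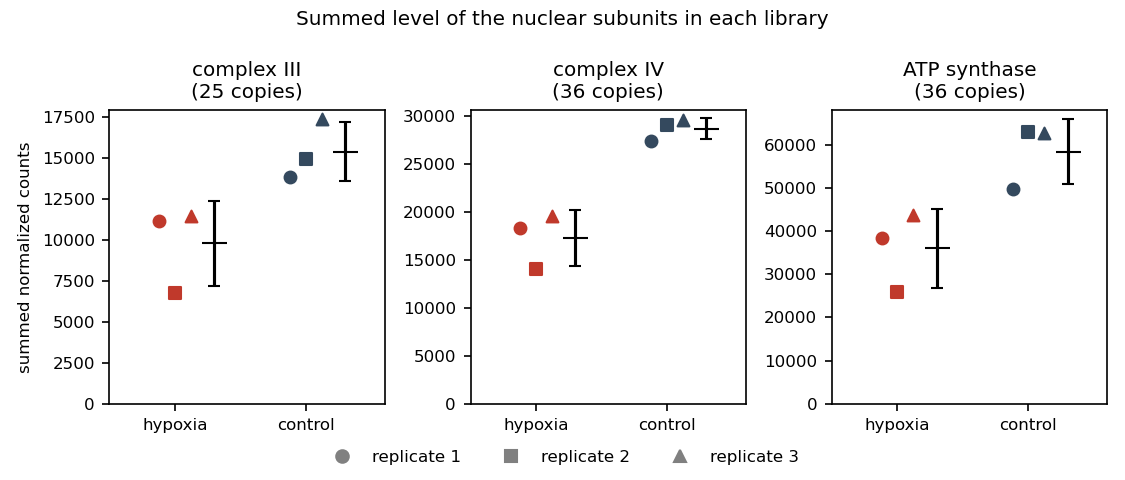
Summed normalized counts (linear axes from 0) of the members of complex III, complex IV and ATP synthase, 1 point per library with its shape giving the replicate, and the group mean ± SD (n = 3) beside the points. In each complex the 3 hypoxia libraries sit below the 3 control libraries, at a ratio of means of 0.636, 0.604 and 0.617.

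The 3 hypoxia libraries did not lie equally low. Taken against the control mean of each gene, the median deviation of the members was -0.64, -1.15 and -0.48 in hypoxia replicates 1 to 3, and -0.13, 0.05 and 0.10 in control replicates 1 to 3. Hypoxia replicate 2 held the lowest of the 3 hypoxia values for 88 of the 96 members. This order depends on the scaling, and that library has the largest size factor, 1.3079. As a share of all recovered reads the members took 3394, 3515 and 4039 RPM (reads per 1e+06 recovered reads) in hypoxia replicates 1 to 3 and 5260.5, 5278 and 6526 in control replicates 1 to 3, so that hypoxia replicate 2 was no longer the lowest library. On that scale, tried after the data were seen, hypoxia replicate 2 was the lowest for 34 members and hypoxia replicate 1 for 52. The lower level in the hypoxia group did not depend on the scaling in these terms: 65 members were lower in every hypoxia library in RPM, against 9.41% of all genes, with medians of -0.53, -0.53 and -0.71 by complex. Between single libraries on the authors' scale, 74 to 92 of the 96 members were lower in the hypoxia library in each of the 9 pairings, where 47.1% to 50.7% of all genes were.

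**Figure D2:**
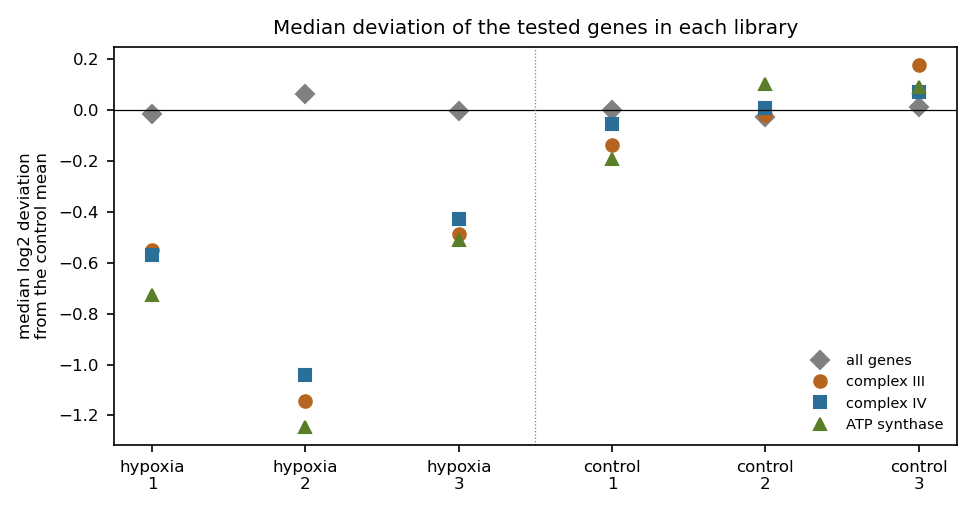
Median deviation from the control mean (log2 scale) in each library, for the tested members of each complex and for all tested genes. Hypoxia replicate 2 is the lowest on the scale of the authors, at a median over all members of -1.15, and the medians of all genes stay between -0.03 and 0.06.

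Levels of cell type markers were uneven between the samples. In bulk RNA, fewer cells of a type and less RNA per cell cannot be told apart. The 26 hepatocyte marker entries summed to 1210939 to 2528278 in hypoxia and 1611709 to 2565939 in controls, with 3 fallen (2 copies of the apolipoprotein gene APOA1 and the fatty acid binding protein gene fabp10a) and 0 risen, and the fibrinogen gene FGB 113044503 alone had 638773, 310001 and 623916 in hypoxia and 344452, 641836 and 361950.4 in controls, so the labelled tissue has its markers. Of 25 tested hepatocyte entries 13 were below 0 and 12 above, with a median change of -0.0043. At an unadjusted limma p under 0.05, 4 of them were lower, against 8.41% of all genes, and 0 higher, against 10.2%. Pancreas digestive enzymes come from cells that lie within the liver of carp. Over 21 entries they summed to 49428 to 155051 in hypoxia and 328 to 116652 in controls. Limma called 0 of them, edgeR 0 and DESeq2 0. Of 17 tested 15 were above 0 (median 2.76). At an unadjusted limma p under 0.05, 3 were higher, against 10.2% of all genes, and 0 lower, against 8.41%. Control replicate 2 was the lowest library for these markers and hypoxia replicate 2 the highest, none of the 21 entries being at 0 in all libraries. Muscle markers (25 entries) summed to 2672 to 3417 in hypoxia and 66.1 to 269 in controls, where 2 copies of the oxygen-binding gene mb (myoglobin) had risen and no entry other than the 3 mb copies exceeded 24.3 in any library. Of 17 tested muscle entries 6 were below 0 and 11 above (median 0.69). In 3 of them every hypoxia library was lower, against 12.2% of all genes, and in 6 every one was higher, against 12.4%. Endothelium markers (15 entries) summed to 1213 to 2674 in hypoxia and 785 to 1055 in controls, with 2 copies of the receptor gene kdr risen. Over all genes 1.83% had risen and 0.417% had fallen. Of the 15 entries 12 were above 0, with a median change of 1.08. In 8 every hypoxia library was higher, against 12.4% of all genes. At an unadjusted limma p under 0.05, 8 were higher and 0 lower, against 10.2% and 8.41% of all genes. Erythrocyte markers (14 entries) summed to 1809.9 to 14553 in hypoxia and 1027 to 5924 in controls, with 0 called by limma, 0 by edgeR and 1 by DESeq2. Of 13 tested 5 were above 0 (median -0.20), and 1 was lower and 2 higher at an unadjusted limma p under 0.05. Leukocyte and macrophage markers (22 entries) summed to 2690.0 to 7820.0 in hypoxia and 1087 to 4535 in controls, with 0 called by limma, 0 by edgeR and 0 by DESeq2. Of 19 tested 16 were above 0 (median 1.12), and 3 were higher and 0 lower at an unadjusted limma p under 0.05. Bile duct markers (25 entries) summed to 10188 to 19996 in hypoxia and 9950.0 to 14086 in controls, with 0 called by limma, 0 by edgeR and 0 by DESeq2. Of 23 tested 18 were above 0 (median 0.50), and 3 were higher and 0 lower at an unadjusted limma p under 0.05. Of the marker calls those of the 2 mb copies held with each library left out, while APOA1, fabp10a and kdr 113063322 kept theirs without control replicate 2 alone and kdr 113120988 without control replicate 2 or 3, with adjusted p of up to 0.22 in the other fits. Hypoxia replicate 2, the lowest hypoxia library for most members on the authors' scale, also had the lowest hepatocyte sum of all libraries, 1210939. It had the highest leukocyte, endothelium and bile duct sums, 7820, 2674 and 19996, but not the highest muscle or erythrocyte sum. No entry of the marker lists was at 0 in all libraries, and the part of these markers in the result was not tested.

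In complex III the medians ran from -0.44 for the catalytic Rieske protein and -0.66 for the core proteins to -0.84 for the small accessory subunits. Differences between roles and between subunits are described here and below without a test. The core proteins face the matrix and build the body of the complex. The single copy of the core protein Uqcrc1 113050714 had 3264, 1696 and 3232 normalized counts in hypoxia replicates 1 to 3 and 3965, 3949 and 5119.8 in control replicates 1 to 3 (-0.72 ± 0.33, adjusted p = 0.29). Its groups did not overlap, with hypoxia replicate 2 far below the others. The other core protein, UQCRC2, had 4 copies with changes of -0.95 to -0.15. The copy nearest to 0, UQCRC2 113111914, stood at 504, 311 and 496 in hypoxia and 429.7, 448 and 551 in controls, with overlapping groups (-0.15 ± 0.26, adjusted p = 0.8), and UQCRC2 113056317 had a change of -0.34 ± 0.24 (adjusted p = 0.49). Leaving out hypoxia replicate 2 turned the sign of UQCRC2 113111914 to 0.08. The 4 copies together had a ratio of 0.717.

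The Rieske protein carries the iron-sulfur cluster that accepts electrons from ubiquinol. Its 4 copies had changes of -0.67 to -0.38, and 1 of the 4, Uqcrfs1 113118231, had groups apart on the authors' scale. The copy with the highest count, Uqcrfs1 113106206, had 1323, 821 and 1227 in hypoxia and 1169, 1700.3 and 1713 in controls (-0.45 ± 0.28, adjusted p = 0.42), where the groups overlapped through control replicate 1. This overlap depends on the scaling. In RPM its groups were apart, at 66.1, 61.7 and 66.2 in hypoxia and 67.6, 83.9 and 102 in controls. The groups of Uqcrfs1 113051518 and Uqcrfs1 113118231 were apart in RPM as well. Summed over its copies the Rieske protein had 2195, 1468 and 2157 in hypoxia replicates 1 to 3, against 2155, 2839 and 2883 in control replicates 1 to 3, a ratio of 0.739 with a median change of -0.44.

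The small accessory subunits surround this core, and 15 of their 16 copies were tested. Their median change was -0.84, 14 of 15 were below 0, 11 were lower in every hypoxia library, and their summed ratio was 0.556. Over all genes 49.8% were below 0 and 12.2% were lower in every hypoxia library. The hinge protein gene Uqcrh 113050977 (subunit 6), whose product helps cytochrome c dock, had 848, 519 and 943 in hypoxia and 1323, 1293 and 1389 in controls (-0.84 ± 0.27, adjusted p = 0.16). Both copies of Uqcrh were lower throughout. UQCRB (subunit 7), which lies at the ubiquinone site of the matrix side, had 958, 619 and 1012 in hypoxia replicates 1 to 3, against 1251, 1180.2 and 1665 in control replicates 1 to 3 over its 2 copies, both without overlap. Subunit 10, UQCR11, had 458, 283 and 474 in hypoxia replicates 1 to 3, against 713, 629 and 1093 in control replicates 1 to 3 over its 5 copies, and the copy with the highest count, a locus without an NCBI identifier, had a change of -1.08 ± 0.31, adjusted p = 0.12. Subunit 9, UQCR10, had its reads mainly in 2 copies. Of these UQCR10 113064401 had 145, 84.1 and 138 in hypoxia and 237, 231 and 308 in controls (-1.10 ± 0.29, adjusted p = 0.095). The largest fitted change of the complex, -1.93 ± 0.63 (adjusted p = 0.16), belonged to the barely detected copy UQCR10 113064419, which had 3 reads over the 3 hypoxia libraries and 18 over the controls. This is a ratio of 0.137 with an exact 95% counting interval of 0.0258 to 0.468, which covers counting error only. Subunit 8, Uqcrq, had copies that differed. Uqcrq 113081211 had 272, 104 and 279 in hypoxia and 521, 606 and 396 in controls (-1.32 ± 0.39, adjusted p = 0.13), all hypoxia libraries below all controls. The low-count copy Uqcrq 113114134 had 28.4, 20.6 and 45.6 in hypoxia and 11.0, 40.5 and 21.0 in controls (0.48 ± 0.55, adjusted p = 0.68), with overlapping groups, and was the only tested complex III member with a change above 0. Since Uqcrq 113081211 and Uqcrq 113075395 held most of the reads of subunit 8, its summed ratio was 0.544.

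**Figure D3:**
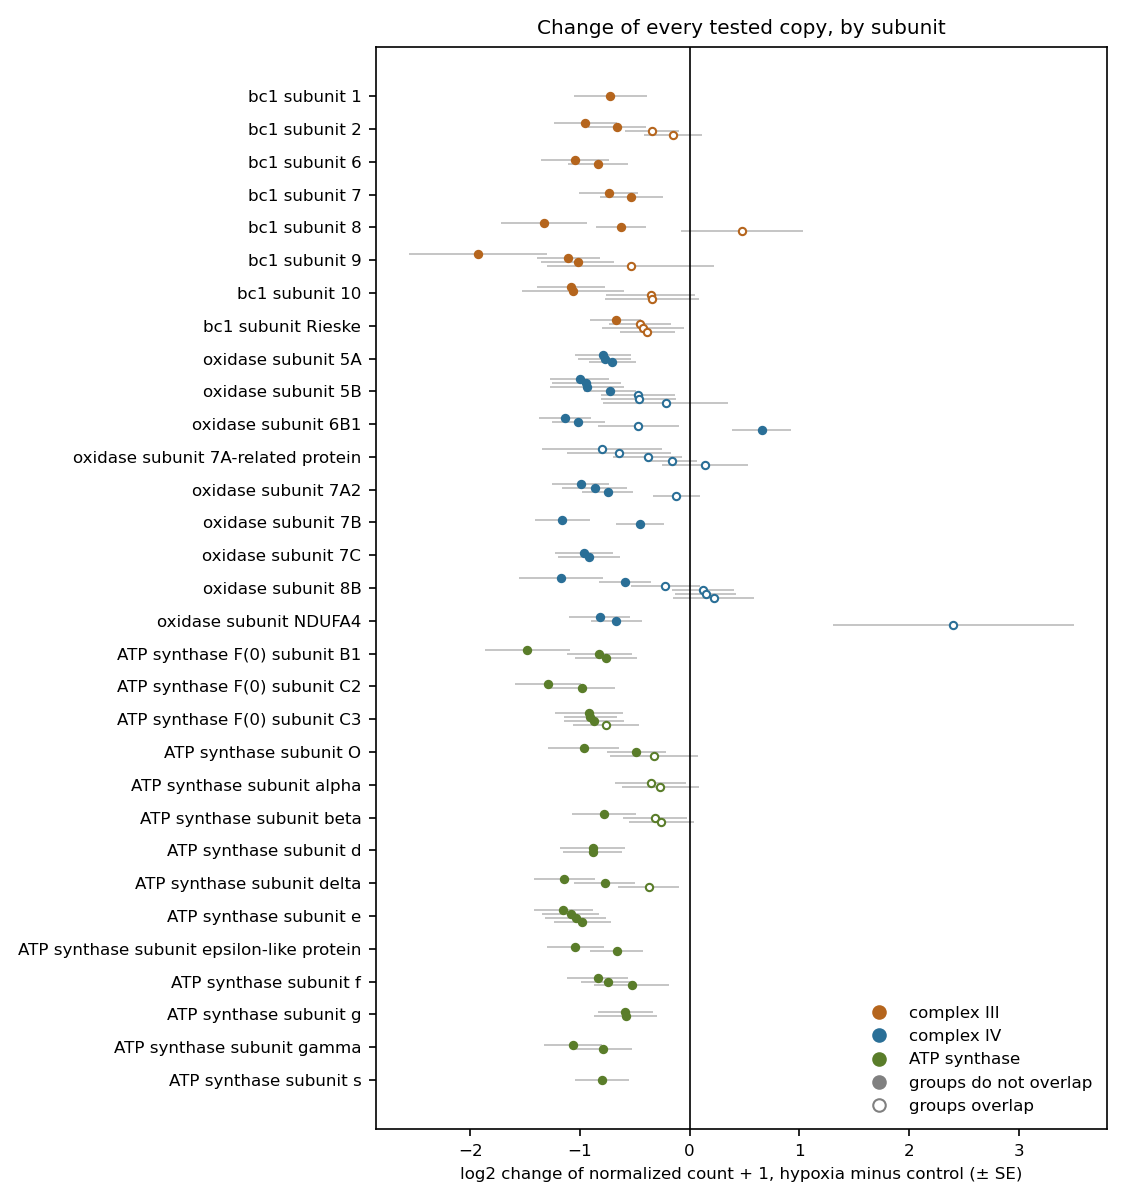
Change after hypoxia (hypoxia minus control, log2 scale) of each tested member, 1 point per gene copy with its SE as a line, arranged by subunit, filled where the groups do not overlap. Of 96 points 89 lie left of 0, and those to the right are copies of bc1 subunit 8 and of oxidase subunits 6B1, 7A-related, 8B and NDUFA4.

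Complex IV had the most varied copies, with a fallen copy and a copy in the opposite direction under the same subunit name. Subunit 6B1, which faces the intermembrane space beside the cytochrome c site, had 4 copies. The called copy Cox6b1 113059951 fell to 779.7, 579.5 and 797 normalized counts in hypoxia replicates 1 to 3, against 1667, 1407 and 1629.5 in control replicates 1 to 3 (-1.13 ± 0.24, adjusted p = 0.046). The call was marginal. It was lost with edgeR (adjusted p = 0.076) and in limma with a replicate block (adjusted p = 0.13), and DESeq2 gave an adjusted p of 0.00061. In limma it was kept without control replicate 2 (adjusted p = 0.039) and lost without hypoxia replicates 1, 2 or 3 (adjusted p = 0.15, 0.12 and 0.12) or control replicates 1 or 3 (adjusted p = 0.15 and 0.18), while its change stayed between -1.22 and -0.99. COX6B1 113116373 had 519, 419 and 508 in hypoxia and 896, 1203 and 843 in controls (-1.01 ± 0.24, adjusted p = 0.069), again without overlap. COX6B1 113042045 had 554, 523 and 703 in hypoxia and 692, 528 and 1470.4 in controls (-0.47 ± 0.37, adjusted p = 0.53), where the groups overlapped and control replicate 3 stood well above the rest.

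The 4th copy, COX6B1 113092707, had 326, 379 and 262 in hypoxia and 259, 162 and 195 in controls (0.66 ± 0.27, adjusted p = 0.23), every hypoxia library being higher on the authors' scale. In RPM its groups overlapped, at 16.3, 28.5 and 14.1 in hypoxia and 15, 7.98 and 11.6 in controls, although the groups of Cox6b1 113059951 stayed apart, at 39.0, 43.5 and 43.0 in hypoxia and 96.4, 69.4 and 97 in controls. The balance of these copies needs no scaling between libraries. On the log2 scale the level of COX6B1 113092707 minus that of Cox6b1 113059951 was -1.26, -0.61 and -1.60 in hypoxia replicates 1 to 3 and -2.68, -3.11 and -3.06 in control replicates 1 to 3, so COX6B1 113092707 made up a larger part of this pair in every hypoxia library than in any control library. This pair was chosen after its values were seen, as 1 of 3 subunits whose copies spanned more than 1.5, and was not tested. Summed over its 4 copies, subunit 6B1 had 2178, 1901 and 2270.3 in hypoxia replicates 1 to 3, against 3515, 3300.1 and 4138 in control replicates 1 to 3.

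**Figure D4:**
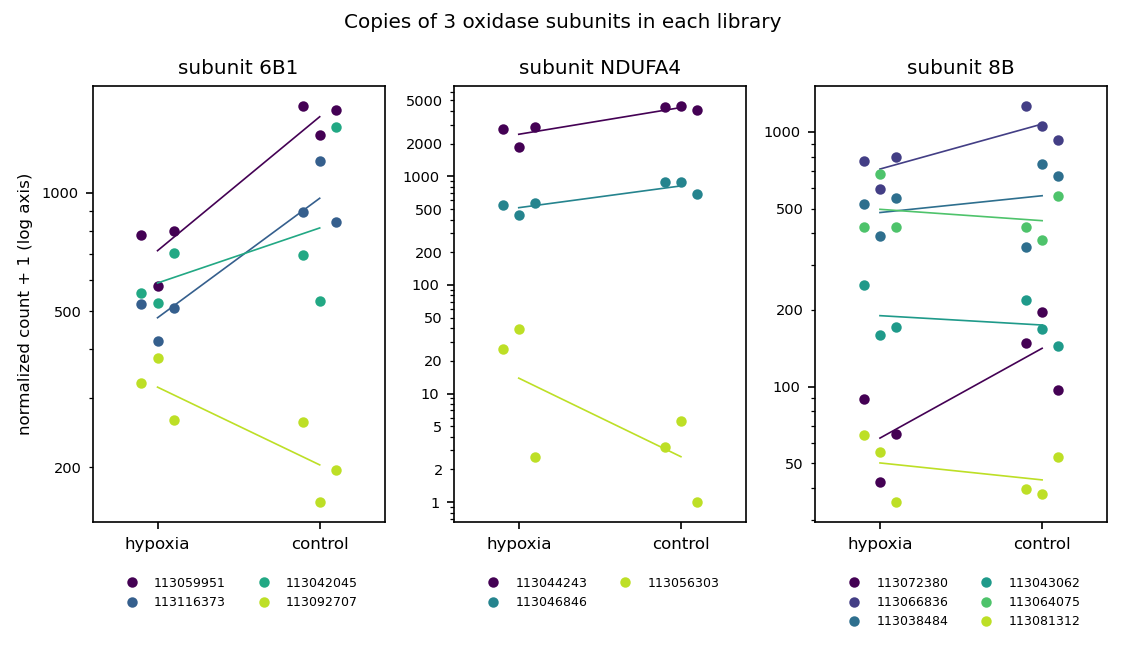
Normalized counts plus 1 (log axes) of each copy of the complex IV subunits 6B1, NDUFA4 and 8B in every library, 1 colour per gene identifier, with lines joining the group means on the log scale. In subunit 6B1 the copy 113092707 runs opposite to 113059951, and in NDUFA4 the low-count copy 113056303 runs opposite to the other 2.

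NDUFA4 was originally named as a subunit of complex I and was later placed in complex IV. Its copy with the highest count, ndufa4 113044243, had 2701, 1869 and 2871 in hypoxia and 4393, 4458 and 4056 in controls (-0.82 ± 0.28, adjusted p = 0.17), and ndufa4 113046846 had 542, 439.6 and 567 in hypoxia and 877, 894 and 691 in controls (-0.67 ± 0.23, adjusted p = 0.18), both without overlap. The low-count copy ndufa4 113056303 had 24.8, 38.2 and 1.63 in hypoxia and 2.2, 4.62 and 0 in controls. Its fitted change was the largest upwards of all members, 2.40 ± 1.10, but hypoxia replicate 3 lay among the controls and the adjusted p was 0.28. The related gene Ndufa4l2, whose product takes the place of NDUFA4 in human cells under hypoxia, had 0, 4.59 and 0 in hypoxia and 5.49, 1.16 and 3.00 in controls, near the level of single reads.

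Subunits 7B and 7C are single-span proteins of the membrane. COX7B 113039156 had 579, 550.5 and 815 in hypoxia and 1579, 1218 and 1504 in controls (-1.16 ± 0.25, adjusted p = 0.052), and its other copy, 113070087, had a change of -0.45 ± 0.22 (adjusted p = 0.31). The 7C copy with the higher count, COX7C 113049057, had 1200.3, 827 and 1418 in hypoxia and 1805, 2574 and 2034 in controls (-0.91 ± 0.28, adjusted p = 0.14). Both 7B copies and both 7C copies were lower in every hypoxia library, with summed ratios of 0.57 and 0.529. Subunit 5A, which binds a thyroid hormone metabolite in mammals, was lower in every hypoxia library in all 3 copies, with changes of -0.79 to -0.70 and, over the copies, 2285, 1739 and 2489 in hypoxia replicates 1 to 3, against 3247, 3813 and 3923 in control replicates 1 to 3. Subunits 5A, 7B and 7C had no copy in which the groups overlapped. Subunit 5B, a zinc-binding subunit of the matrix side, had 7 copies with changes of -1.0 to -0.22, 4 of them without overlap. Its copy with the highest count, COX5B 113054572, had 1138, 834 and 1342 in hypoxia and 1866, 2212 and 2479 in controls (-1.0 ± 0.27, adjusted p = 0.1).

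Among the isoform pairs, subunit 7A exists in mammals as a muscle form, 7A1, and a form found in liver and most tissues, 7A2. All 4 copies were named Cox7a2 in the table, although the reference names 113058402 cox7a1. That copy had 259, 183 and 347 in hypoxia and 592, 438 and 385 in controls (-0.86 ± 0.30, adjusted p = 0.18). Cox7a2 113060390 had 474, 314 and 525 in hypoxia and 835, 769.8 and 956 in controls (-0.99 ± 0.26, adjusted p = 0.095), and Cox7a2 113116981 had a change of -0.75 ± 0.23 (adjusted p = 0.15). These 3 copies were lower in every hypoxia library. COX7A2 113120612 had 487, 391 and 413 in hypoxia and 463, 477 and 457 in controls (-0.12 ± 0.21, adjusted p = 0.8), and its groups overlapped. The 7A-related protein COX7A2L takes part in joining complexes III and IV into supercomplexes in mammals. The copy COX7A2L 113057238 had 275, 229 and 279 in hypoxia and 251, 316 and 309 in controls (-0.16 ± 0.23, adjusted p = 0.75), and COX7A2L 113113041 had 215, 96.3 and 195 in hypoxia and 102, 218 and 135 in controls (0.14 ± 0.39, adjusted p = 0.88), a sign that turned without hypoxia replicates 1 or 3 or control replicate 1. In its 5 copies the groups overlapped throughout, with a median change of -0.38, a range of -0.80 to 0.14 and a summed ratio of 0.868.

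Subunit 8 also has a muscle form and a liver form in mammals, and all 6 carp copies were named COX8B, with 113038484 named cox8a in the reference. COX8B 113072380 had 88.6, 41.3 and 64.3 in hypoxia and 147, 195 and 96.1 in controls (-1.17 ± 0.38, adjusted p = 0.16), and COX8B 113066836 had 768, 596 and 797 in hypoxia and 1266, 1052 and 929 in controls (-0.59 ± 0.24, adjusted p = 0.24). In both, the groups were apart. The other 4 copies overlapped. COX8B 113038484 had 522, 391 and 548 in hypoxia and 353, 749 and 668 in controls (-0.22 ± 0.32). For COX8B 113064075 the values were 422, 686 and 422 in hypoxia and 423, 377 and 562 in controls (0.15 ± 0.28), and without hypoxia replicate 2 the change was -0.09. COX8B 113043062 and COX8B 113081312 had changes of 0.12 ± 0.28 and 0.22 ± 0.37, and the sign of COX8B 113043062 turned to -0.08 without hypoxia replicate 1 and to -0.02 without control replicate 3. The adjusted p of these 4 copies was 0.75 to 0.85. The complex IV copies were also grouped after their values were seen, with no test. The 11 copies of 8B and the 7A-related protein had a summed ratio of 0.827. Of these 11 copies 2 were lower in every hypoxia library, a share near the 12.2% of all genes. The other 25 complex IV copies had a ratio of 0.574, with 18 lower in every hypoxia library.

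ATP synthase had the most uniform members, all 36 copies having a change below 0, from -1.48 to -0.26. Subunits alpha and beta form the ring of the catalytic head that makes ATP, and their summed ratios, 0.802 and 0.772, were the nearest to 1 among the 14 subunits. Atp5f1a 113038909 (alpha) had 3821, 2513 and 4008 normalized counts in hypoxia replicates 1 to 3 and 3272, 5217 and 4724 in control replicates 1 to 3 (-0.36 ± 0.32, adjusted p = 0.59). Atp5f1a 113097282 had 2936, 1833 and 3386 in hypoxia and 2164, 3929 and 3754 in controls (-0.27 ± 0.35, adjusted p = 0.72). In both alpha copies control replicate 1 lay below hypoxia replicates 1 and 3. ATP5F1B 113055075 (beta) had 2609, 2017 and 3094 in hypoxia and 2370.5, 3645 and 3211 in controls (-0.26 ± 0.29, adjusted p = 0.68), and ATP5F1B 113078677 had 3106, 2023 and 3263 in hypoxia and 2890.3, 3608 and 3793 in controls (-0.32 ± 0.29, adjusted p = 0.6), with the same overlap. The remaining beta copy, ATP5F1B 113110660, was lower in every hypoxia library (-0.78 ± 0.29, adjusted p = 0.2). The 5 copies of alpha and beta, grouped after their values were seen, had a summed ratio of 0.786 with 1 of 5 lower throughout, and the other 31 copies a ratio of 0.553 with 28 of 31. Over all genes 12.2% were lower throughout, and the difference between these groups of genes was not tested.

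Subunits gamma, delta and epsilon make the shaft that turns within the head. Their summed ratios were 0.566, 0.556 and 0.552, with changes of -1.06 and -0.79 for the 2 gamma copies, -1.14 to -0.37 for the 3 delta copies and -1.04 and -0.66 for the 2 epsilon-like copies. Summed over copies, gamma had 2040.3, 1498 and 2192 in hypoxia replicates 1 to 3, against 2972, 3378 and 3768 in control replicates 1 to 3. Delta had 1637, 1089.5 and 1823 in hypoxia replicates 1 to 3, against 2236, 2755 and 3188 in control replicates 1 to 3, and the epsilon-like subunit had 848, 528 and 625 in hypoxia replicates 1 to 3, against 1166, 1256 and 1203 in control replicates 1 to 3. Summed alpha had 6756, 4347 and 7394 in hypoxia replicates 1 to 3, against 5436, 9146 and 8478 in control replicates 1 to 3, and summed beta had 7106, 4824 and 7686 in hypoxia replicates 1 to 3, against 6917, 9238 and 9246 in control replicates 1 to 3. Relative to the control mean of each subunit, gamma, delta and epsilon were lower than alpha and beta in each hypoxia library.

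The c ring is the rotor that protons turn in the membrane, and in mammals several genes encode the same mature protein. Its 6 copies had a median change of -0.91 and a summed ratio of 0.521. Of these 6 copies 5 were lower in every hypoxia library, against 12.2% of all genes. ATP5G2 113046718, which the reference names atp5mc1, had 1044, 735 and 1367 in hypoxia and 2025, 2597 and 2921 in controls (-1.29 ± 0.30, adjusted p = 0.064). ATP5G3 113092742, the c copy with the highest count, had 2858, 1908 and 3301 in hypoxia and 4115, 5299 and 5566 in controls (-0.92 ± 0.31, adjusted p = 0.17). The 4 C3 copies together had 5301, 3704 and 6222 in hypoxia replicates 1 to 3, against 7547, 10085 and 10112 in control replicates 1 to 3. The 2 C2 copies had a summed ratio of 0.47 and the 4 C3 copies one of 0.549.

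**Figure D5:**
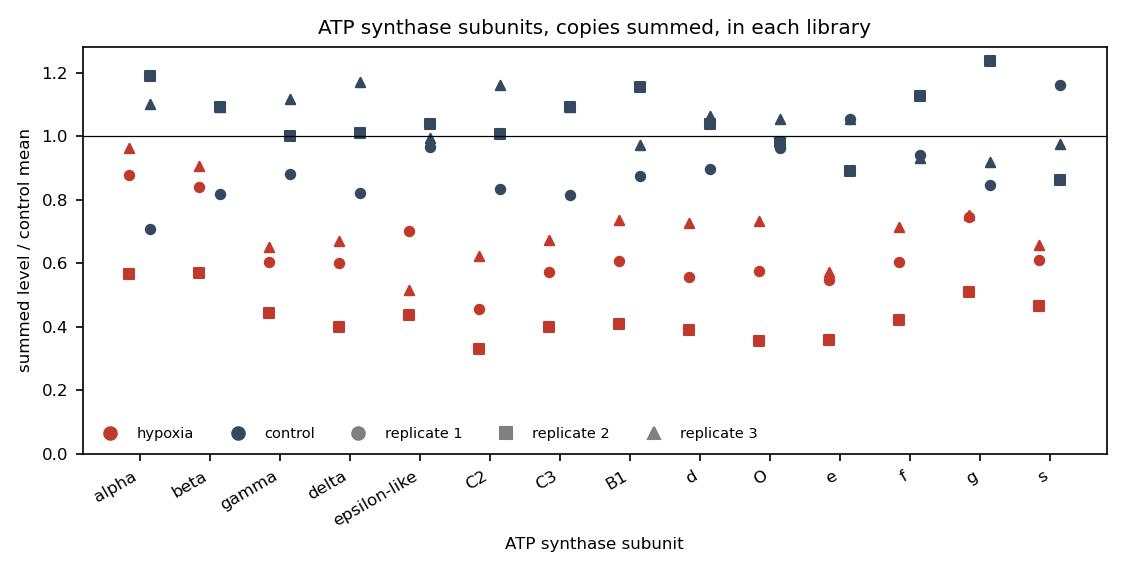
Level of each of the 14 ATP synthase subunits, copies summed, in every library, divided by the control mean of that subunit (linear axis from 0, line at the control mean). Marker shapes give the replicate number. Alpha and beta overlap between groups, and in the other 12 subunits all 3 hypoxia points lie below all 3 control points.

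The peripheral stalk holds the head still while the rotor turns. Its 8 copies of subunits B1, d and O had a median change of -0.85. Of these 8 copies 7 were lower in every hypoxia library, against 12.2% of all genes. ATP5O 113108428, the oligomycin sensitivity protein, had 2411, 1475 and 3100.4 in hypoxia and 4178, 4231 and 4627 in controls (-0.96 ± 0.32, adjusted p = 0.17). The largest change in the complex was that of the low-count copy ATP5F1 113107600 (subunit B1), with 52.0, 29.1 and 39.1 in hypoxia and 154, 70.5 and 124 in controls (-1.48 ± 0.39, adjusted p = 0.095). The other B1 copies, 113093924 and 113107712, had changes of -0.76 ± 0.28 and -0.82 ± 0.29. Both copies of subunit d had a change of -0.88, and summed over them subunit d had 2079, 1449.6 and 2709 in hypoxia replicates 1 to 3, against 3342, 3871 and 3971 in control replicates 1 to 3. Subunit O had 2735, 1687 and 3494 in hypoxia replicates 1 to 3, against 4587, 4669.9 and 5027 in control replicates 1 to 3. Both subunits were lower in every hypoxia library.

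Subunits e, f and g sit in the membrane where pairs of ATP synthase join. All 9 of their copies were lower in every hypoxia library (median -0.84), against 12.2% of all genes. Subunit e had the lowest summed ratio of the 3, 0.493, against 0.58 for f and 0.668 for g. Over their copies, f had 1439, 999 and 1699.9 in hypoxia replicates 1 to 3, against 2236, 2681 and 2215 in control replicates 1 to 3, and g had 2173, 1485 and 2191 in hypoxia replicates 1 to 3, against 2468, 3606 and 2682 in control replicates 1 to 3. The e copy ATP5I 113038757 had 261, 155 and 271 in hypoxia and 501, 533 and 452 in controls (-1.15 ± 0.27, adjusted p = 0.07), and the 4 copies lay within -1.15 to -0.98. The other 3 e copies are those listed as long non-coding RNA in the reference, and without them and the 2 such copies of complex III the medians by complex were -0.67, -0.68 and -0.79. Subunit s, ATP5S 113056804, which the reference names dmac2l, had 211, 161 and 227 in hypoxia and 402, 298 and 337 in controls (-0.79 ± 0.25, adjusted p = 0.14).

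With the copies of each subunit added up, nearly all subunits were lower in every hypoxia library on the authors' scale. With copies summed by gene name and the test run over 17981 names, all 31 subunits had a change below 0, against 53.2% of all names, from -1.13 for ATP5G2 to -0.24 for COX7A2L. In 27 of 31 the hypoxia libraries were all below the control libraries (7 of 8 in complex III, 8 of 9 in complex IV and 12 of 14 in ATP synthase), against 14.8% of all names. On this scale the exceptions were UQCRFS1, COX7A2L, ATP5F1A and ATP5F1B. Which subunits are exceptions depends on the scaling. In RPM the copies of UQCRFS1 add up to less in every hypoxia library than in any control library, and those of COX8B do not. In RPM the groups were apart in the UQCRFS1 copies 113051518, 113106206 and 113118231 and overlapped in 113061551. On the authors' scale they were apart in 113118231 alone. By limma's adjusted p 0 of the 31 were called, where 0.467% of all names had fallen, although 25 were lower at an unadjusted p under 0.05, against 10.2% of all names. The lowest adjusted p was that of ATP5I (subunit e), with 1356, 891 and 1415 in hypoxia replicates 1 to 3, against 2610.1, 2210.1 and 2613 in control replicates 1 to 3 (-1.05 ± 0.23, adjusted p = 0.066). Next came COX7B, with 1424, 1229 and 1601 in hypoxia replicates 1 to 3, against 2643, 2348 and 2470.3 in control replicates 1 to 3 (-0.82 ± 0.19, adjusted p = 0.077). On the authors' scale summed COX8B was lower in every hypoxia library by a small amount, 2115, 1926 and 2034 in hypoxia replicates 1 to 3, against 2445, 2578 and 2449 in control replicates 1 to 3. In RPM the groups of summed COX8B overlapped, with hypoxia replicate 2 above control replicates 1 and 2.

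Other tests gave other numbers of calls with the same direction. An adjusted p under 0.05 in the authors' deposited table was found for 18 members, all lower after hypoxia (2, 6 and 10 by complex), against 2.06% of all genes. All 4 copies of subunit e were among these in the authors' deposited table. On recovered whole reads DESeq2 called 22 members, all lower, against 2.59% of all genes. The authors' log2 fold changes are close to those of DESeq2, so these counts are not independent of each other. The edgeR quasi-likelihood test called 0 members at an adjusted p under 0.05, where it called 0.404% of all genes lower. At an unadjusted p under 0.05 edgeR gave 56 members lower, and its share over all genes at that threshold is not given here.

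Some nuclear subunits of the same complexes carry other descriptions in the table. Of 9 copies of such nuclear subunits, cytochrome c1 (CYC1), coupling factor 6 (ATP5J), USMG5 and MP68, 3 fell, 0 rose and all 9 were below 0, with a median of -1.10. Over all genes these shares were 0.417%, 1.83% and 49.8%. The fallen ones were copies of USMG5, a small membrane protein of ATP synthase. Usmg5 113044047 fell to 40.2, 32.9 and 47.2 in hypoxia, against 236, 171 and 225 in controls (-2.37 ± 0.29, adjusted p = 0.0039), and without control replicate 3 the adjusted p was 0.05003, just past the threshold. Usmg5 113044063 fell to 221, 128 and 231 in hypoxia, against 647, 435 and 586 in controls (-1.54 ± 0.30, adjusted p = 0.034), and USMG5 113043557 fell to 255, 169 and 238 in hypoxia, against 538, 487 and 472 in controls (-1.19 ± 0.24, adjusted p = 0.042). The calls of these 2 copies were kept without control replicate 2 and lost without each of the other 5 libraries, and the adjusted p reached 0.18 and 0.16 without control replicate 3. CYC1, which hands electrons to cytochrome c, had copies at -0.57 ± 0.32 and -0.51 ± 0.30, both with overlapping groups.

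Of the 6 mitochondrial genes of these complexes 2 fell and 0 rose, and all 6 were below every control in every hypoxia library, with a median of -1.51. Over all genes these shares were 0.417%, 1.83% and 12.2%. Cytochrome b of complex III, mt-cyb, fell to 142, 122 and 155 in hypoxia, against 575, 407 and 477 in controls (-1.79 ± 0.24, adjusted p = 0.0064, and 0.059 without control replicate 3). The proton channel subunit mt-atp6 fell to 1085, 1085 and 1779 in hypoxia, against 5136, 3565 and 3952 in controls (-1.70 ± 0.30, adjusted p = 0.023), and lost its call without hypoxia replicates 1 or 2 (adjusted p = 0.14 and 0.097) or control replicates 1 or 3 (adjusted p = 0.11 and 0.13). The oxidase subunits mt-co1, mt-co2 and mt-co3, which include the site where oxygen is reduced, had changes of -1.13 ± 0.49, -0.86 ± 0.52 and -1.34 ± 0.31, and mt-atp8 had one of -1.68 ± 0.38, with adjusted p of 0.061 to 0.41. Together the 6 genes took 2508, 3545 and 3469.7 RPM in hypoxia and 6464, 5034 and 6952 in controls.

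Complex I, which feeds electrons into the chain from NADH, had a median change of -0.75, next to -0.75 for the members. Of its 80 tested nuclear genes 3 fell, 0 rose, 75 were below 0 and 55 were lower in every hypoxia library. Over all genes these shares were 0.417%, 1.83%, 49.8% and 12.2%. The fallen genes were Ndufc2 113115312 (-1.44 ± 0.28, adjusted p = 0.034), Ndufb3 113053443 (-1.23 ± 0.25, adjusted p = 0.042) and NDUFA7 113107837 (-1.15 ± 0.23, adjusted p = 0.044), all accessory subunits, and each lost its call without control replicate 3 (adjusted p = 0.18, 0.19 and 0.17) and without each other library but control replicate 2, whose omission ended the call of NDUFA7 alone (adjusted p = 0.052). Complex II, succinate dehydrogenase, had 11 tested genes and a median of -0.70, with 0 called by limma, 0 by edgeR and 2 by DESeq2. At an unadjusted limma p under 0.05, 5 were lower, against 8.41% of all genes, and 0 higher, against 10.2%. Its smallest p was that of sdhb 113040348 (-1.21 ± 0.32, adjusted p = 0.1). Groups of assembly factors had medians nearer to 0, -0.43 over 11 genes for complex III, -0.42 over 44 for complex IV and -0.46 over 9 for ATP synthase. By limma 0 of these 64 genes were called, by edgeR 0 and by DESeq2 2. At an unadjusted limma p under 0.05, 3, 11 and 4 were lower, against 8.41% of all genes. At that threshold 1, 1 and 0 were higher, against 10.2%. The smallest p in these groups belonged to ttc19 113045690 (-1.01 ± 0.33, adjusted p = 0.16), coa5 113053665 (-1.13 ± 0.28, adjusted p = 0.082) and TMEM70 113117774 (-1.0 ± 0.33, adjusted p = 0.16).

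Among 14 genes known to adjust these complexes to low oxygen 11 were below 0 and 3 above, and the median was -0.42. Limma called 0 of them, edgeR 0 and DESeq2 0. At an unadjusted limma p under 0.05, 4 were lower, against 8.41% of all genes, and 0 higher, against 10.2%. In 4 genes every hypoxia library was lower, against 12.2% of all genes, and in 0 every one was higher, against 12.4%. All 3 genes above 0 are among those named here, while most of those below 0 are not. The inhibitor of ATP synthase, which stops the enzyme from running backwards and burning ATP when respiration halts, had 5 copies. Among them atpif1b 113117387 alone had a change above 0. The copy atpif1b 113117490 had 423, 142 and 331 in hypoxia and 982, 470.5 and 598 in controls (-1.26 ± 0.43, adjusted p = 0.17), while atpif1b 113117387 had 125, 72.6 and 194 in hypoxia and 6.59, 218 and 24.0 in controls (1.82 ± 1.02, adjusted p = 0.38), its controls being far apart. HIGD1A, a hypoxia-induced partner of complex IV in mammals, had copies at 0.48 ± 0.28 and -0.48 ± 0.45. The protease gene LONP1 113064659, whose product breaks down an oxidase isoform under hypoxia in mammals, had a change of 0.48 ± 0.32, adjusted p = 0.45. Of 37 regulators of mitochondrial biogenesis 2 rose and 0 fell, against 1.83% and 0.417% of all genes, with a median of 0.24. The coactivator PPARGC1A 113106421, which in mammals raises the transcription of these subunits, rose to 762, 242 and 475 in hypoxia, against 47.3, 27.7 and 19.0 in controls (3.88 ± 0.47, adjusted p = 0.0039, and 0.054 without control replicate 3). Its relative Ppargc1b 113114281 rose to 591, 331 and 491 in hypoxia, against 173, 192 and 205 in controls (1.27 ± 0.27, adjusted p = 0.049), and kept its call without hypoxia replicate 2 but not without any of the other 5 libraries, with an adjusted p of up to 0.19 without hypoxia replicate 1.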

How the data were processed

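Liver RNA was sequenced in 3 hypoxia and 3 control libraries. The submitters' processing notes name the aligners TopHat2 2.1.1 and Bowtie2 2.2.8. Counter, genome build and annotation were not given in the sources used here. The deposited signal values are read counts that the authors divided by a size factor per library: within 0.01 of a read, 100% of the values in each library were whole multiples of a single step. Size factors were 0.8465 to 1.3079. The authors' table also holds log2 fold changes and p-values from a test they do not name in the header. Its log2 fold changes are close to those of DESeq2 on recovered reads, at -0.6701 in both for Uqcrc1 113050714. Besides this value only counts of calls are quoted from it.

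The test was limma 3.58.1 in R 4.3.3, with a mean-variance trend, on log2 of the value plus 1, for the 41045 genes whose mean reached 1. It had no covariate. The added 1 shrinks the change of low-count genes. Alternatives were pseudocounts of 0.5 and 5, no filter or a minimum mean of 10, quantile normalization, edgeR 4.0.16 and DESeq2 1.42.0 on recovered reads, a replicate block, copies summed by name, and each library left out. The fits were tested on simulated data. The reference gene table (goldfish assembly ASM336829v1) served for names and gene types.

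The members and gene lists were chosen with earlier results of these data known. Members were named by rule where called, among the 3 of each complex with the largest mean, rise or fall, or copies of the isoform pairs 6B1, 7A2 and 8B. Other members the text names, among them COX7A2L, were chosen after their values were seen. From each pathway list the text names the called genes or the 1 with the smallest p. Other genes were also named from the lists of mitochondrial genes, of nuclear subunits with other descriptions and of genes that adjust the complexes to low oxygen. The RPM scaling, the medians without long non-coding members and the non-overlap with a library left out were added after the data were seen. Counting intervals cover counting error only. No set test was run.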

Additional observations from a re-analysis of the deposited data

How the results depend on the processing

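All 3 complex medians and all 3 summed ratios kept their direction under every alternative run. They also moved by less than the spread between replicates, which is a weak check. Leaving out 1 of 3 libraries shifts a group mean by only a part of that spread, and the alternatives share the same libraries. Without hypoxia replicate 2, the library with the lowest values on the authors' scale but not in RPM, the medians were -0.55, -0.53 and -0.61. The number of members lower in every hypoxia library was 64 to 77 with 1 library left out, the highest without control replicate 1, where 16.7% of all genes were. Groups that are apart stay apart when a library is removed. This number can therefore only stay or rise, and it is no check of the result. The numbers of calls moved more. Over all genes, 921 calls became 2733 with DESeq2, 415 with a replicate block and 400 with copies summed by name, and 257 to 2185 with 1 library left out, the highest without control replicate 2. Among the members, 1 call became 8 with quantile normalization, 22 with DESeq2, 0 with edgeR, 0 with the replicate block and 0 with copies summed, and 0 to 4 with 1 library left out, the 4 without control replicate 2. Over all genes these fits called 274, 1062, 166, 61 and 84 lower, in the same order. With 1 library left out they called 13 to 871 lower, the highest without control replicate 2. At an unadjusted p under 0.05, limma gave 55 members lower with the block and 45 to 56 with 1 library left out. With copies summed it gave 25 of 31 lower, against 10.2% of all names. By edgeR 56 members were lower at that threshold. For the block, the left-out libraries and edgeR, the share over all genes at that threshold is not given here. The cause of these differences was not tested. The replicate numbers gave no sign of pairing the libraries. Deviations from the group means correlated at -0.07, -0.19 and -0.03 between same-numbered hypoxia and control libraries. Between differently numbered libraries they correlated at -0.19 to 0.21. Quantile normalization moved the median of all genes to -0.07. With 1 library left out, signs turned in 7 cases among the 96 tested members: UQCRC2 113111914 and COX8B 113064075 without hypoxia replicate 2, COX8B 113043062 without hypoxia replicate 1 or control replicate 3, and COX7A2L 113113041 without hypoxia replicates 1 or 3 or control replicate 1. Over these fits UQCRC2 113111914 spanned -0.27 to 0.079, COX8B 113064075 -0.085 to 0.31, COX8B 113043062 -0.080 to 0.28 and COX7A2L 113113041 -0.11 to 0.50. Of 1341 values of the tested members under the alternatives, 1296 kept direction and side of the threshold, 31 gained a call, 7 lost it and 7 turned sign. Ignoring letter case gave the same 97 members, and 0 members are listed as pseudogenes. Copies with only a few reads carry wide counting error.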

Other observations

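Subunit 4 of complex IV is not among the members, because its description in the table does not hold the words used to find them. Subunit 4 was looked up afterwards by its reference symbol, since in mammals the isoform COX4I2 replaces COX4I1 when oxygen is low. The copy cox4i1 113061791 had 3129, 2494 and 3619.5 normalized counts in hypoxia replicates 1 to 3 and 5730.1, 5641 and 6914 in control replicates 1 to 3 (-0.99 ± 0.29, adjusted p = 0.12), all hypoxia libraries being lower. The copy cox4i2 113069123 had 93.3, 145 and 136 in hypoxia and 334, 118 and 63.1 in controls (-0.15 ± 0.53, adjusted p = 0.91). Its groups overlapped, and control replicate 1 held the highest value of all.

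The balance of copies in 2 further subunits was chosen after the values were seen and has no test. The level of Uqcrq 113114134 minus that of Uqcrq 113081211, on the log2 scale, was -2.69 ± 0.48 in hypoxia and -4.50 ± 0.83 in controls (SD, n = 3 each). For ndufa4 113056303 minus ndufa4 113044243 it was -7.46 ± 2.35 in hypoxia and -10.68 ± 1.20 in controls, where hypoxia replicate 3 lay within the control range. In control replicate 3 ndufa4 113056303 had 0 normalized counts, so the difference there, -11.99, rests on the added 1 of the log2 scale.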
